A study of Mus musculus with 2 samples.

Results

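Glutathione is the main small thiol of the cell. Many of the genes described here make it, use it or restore it, and the rest are other antioxidant genes and their regulators. The 37 members were picked by gene symbol out of the 32285 genes in the count tables, and all 37 were listed. The rule itself uses no measured value, but the set was put together with earlier results of these data known. They are 4 alpha class glutathione S-transferases (Gsta1 to Gsta4), 3 of the mu class (Gstm1, Gstm2, Gstm5), 6 other soluble or mitochondrial transferases (Gstp1, Gstt1, Gstt2, Gstk1, Gstz1, Gsto1), the 3 microsomal Mgst genes, the peroxidases Gpx1, Gpx3 and Gpx4, 4 genes that make or reduce glutathione (Gclc, Gclm, Gss, Gsr), the quinone reductase Nqo1 with Txnrd1 and Txn1, 5 peroxiredoxins, Sod1 to Sod3 with Cat, and the pair Nfe2l2 and Keap1. The study asked what the loss of oxygen sensing in endothelial cells does to a kidney that is already injured. One library came from a Cre- littermate and 1 from a PHDTiEC mouse, which carries Cdh5-CreERT2 and floxed alleles of the 3 oxygen-sensing prolyl hydroxylases (Phd1f/f, Phd2f/f and Phd3f/f), so that Cre is driven by the Cdh5 promoter of endothelial cells. Both mice were 8 to 10 weeks old, had unilateral renal ischemia for 25 minutes, received 4 doses of 3 mg tamoxifen from the day after surgery, and gave the injured kidney on day 14. By the study's account, experiments at this stage were done on male mice only. With 1 mouse and 1 library per genotype there is no replicate spread and no test. Every interval below is exact, at 95%, and covers counting error only, so a difference between the libraries cannot be told apart from a difference between 2 mice or 2 cell preparations.

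In background, glutathione S-transferases join glutathione to lipid peroxidation products and foreign compounds, glutathione peroxidases and peroxiredoxins remove peroxides, and superoxide dismutases supply hydrogen peroxide that catalase breaks down. Glutamate-cysteine ligase (Gclc with its modifier Gclm) sets the pace of glutathione synthesis, Gss completes it, and Gsr returns the oxidised form to the reduced form. Many of these genes carry antioxidant response elements bound by NRF2, the protein of Nfe2l2, which KEAP1 holds at a low level until electrophiles or oxidants release it. The kidney proximal tubule (PT) is known for a high glutathione turnover and is the main source of GPX3, the peroxidase of blood plasma.

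The libraries held 136004367 (Cre-) and 146758812 (PHDTiEC) UMIs, that is, distinct captured transcripts, of which 8548 and 9309 barcodes passed the cell filters with a median of 7500 and 7898 UMIs. Only 28 barcode sequences occurred among the cells of both libraries. The median mitochondrial share of a cell was 4.13% in the Cre- and 3.07% in the PHDTiEC library. Clusters were named from their marker genes, and 8 classes carry the comparisons: cells like those of the PT, of injured PT, of the collecting duct (CD), of the distal convoluted tubule (DCT) and of the thick ascending limb (TAL), and endothelial-like, fibroblast-like and macrophage-like cells. The targeted genes did not check the label. Egln1, which encodes PHD2, stood at 67.8 UMIs per 1000000 UMIs of the class (CPM) in the Cre- and 202 CPM in the PHDTiEC endothelial-like cells, Egln2 (PHD1) at 44.3 and 39.3 CPM and Egln3 (PHD3) at 26 and 160 CPM. Counts per gene do not show whether exons were removed, so the second library is called the library labelled PHDTiEC in what follows.

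The members were most abundant in the PT. Together they took 2.73% of all UMIs of Cre- PT-like cells and 2.97% of those of PT-like cells from the library labelled PHDTiEC, against 1.31% and 1.32% in injured PT-like cells and between 0.423% and 0.741% in the other 6 classes. For 12 of the 37 members the PT-like class had the highest CPM of the named classes in both libraries. Gpx3 was the extreme case. It stood at 14310 CPM in the Cre- and 16622 CPM in the other PT-like cells, and at 2702 and 3784 CPM in injured PT-like cells, whereas the highest of the 6 other classes, the fibroblast-like cells, held 591 and 444 CPM. Gpx3 also made up 2564 and 3283 CPM of the free RNA, which is the RNA in barcodes with under 100 UMIs, so low counts of it are found in every class. In fibroblast-like cells free RNA alone would give 271 and 409 CPM of it. Sod3, the secreted superoxide dismutase, was likewise highest in PT-like cells (186 and 192 CPM).

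Other members had their highest level elsewhere. The small urothelial-like class (25 and 33 cells) led for Gsta4 (1752 and 799 CPM), which acts on the lipid aldehyde 4-hydroxynonenal, and for Gstm1 (3940 and 978 CPM). Gsr was highest in neutrophil-like cells at 698 and 635 CPM, next to monocyte-like cells at 596 and 604 CPM, while no named tubular class exceeded 124 CPM. Txnrd1, the thioredoxin reductase, was also highest in neutrophil-like cells, at 333 and 361 CPM, as was its substrate Txn1 at 1689 and 1779 CPM. Nfe2l2 itself was highest in neutrophil-like cells too, at 863 and 986 CPM. Prdx1 was highest in macrophage-like cells among the named classes at 1654 and 1540 CPM. Gclc, the catalytic subunit of glutamate-cysteine ligase, was highest in intercalated-like cells (204 and 246 CPM). The members with the fewest UMIs in PT-like cells were Gsta1 (4 in the Cre- and 8 in the other library) and Mgst2 (0 and 2).

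**Figure D1:**
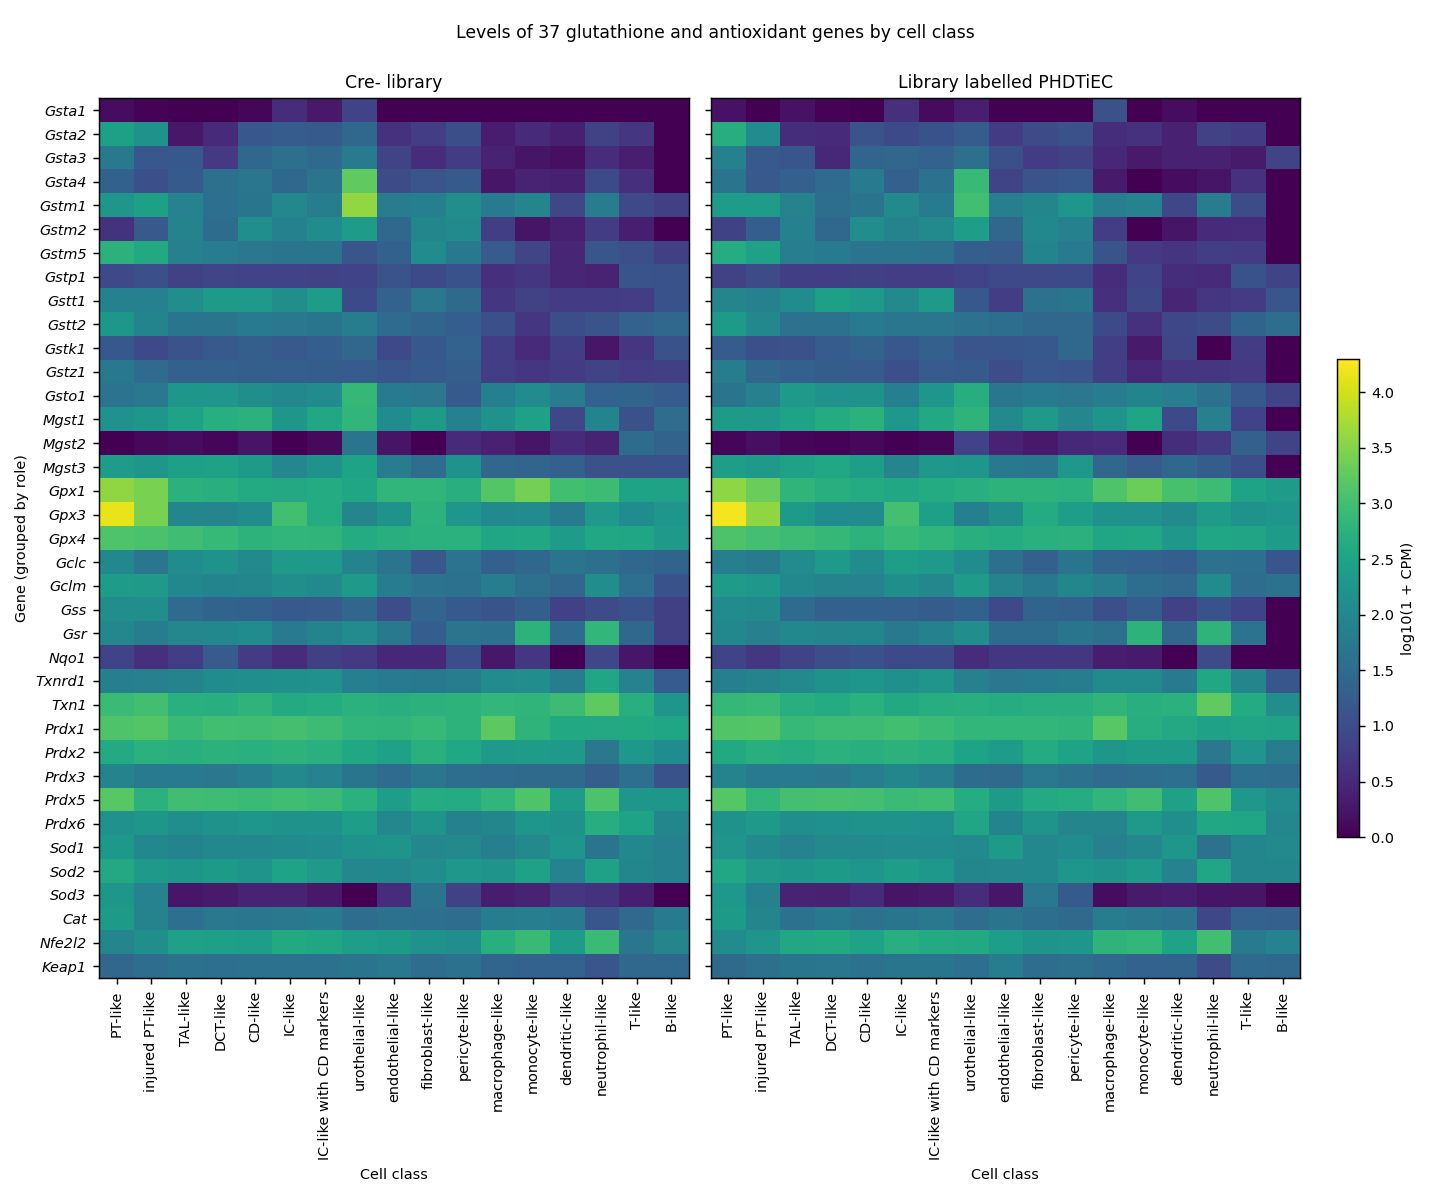
Level of each of the 37 members, as log10(1 + CPM), in 17 named cell classes of the Cre- library (left) and of the library labelled PHDTiEC (right), with genes grouped by role. Gpx3 is brightest in PT-like cells in both panels (14310 and 16622 CPM), and Gsta4 and Gstm1 are brightest in urothelial-like cells.

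In PT-like cells (431 Cre- and 605 labelled PHDTiEC cells) 3 of the glutathione S-transferases passed 1.5-fold. Gsta4 had 214 UMIs, or 20.6 CPM (17.9 to 23.5), among Cre- cells and 591 UMIs, or 44.1 CPM (40.6 to 47.8), among those labelled PHDTiEC. That is a log2 ratio of 1.10 (0.87 to 1.33), and the intervals of the levels did not overlap. Gsta2, an alpha class enzyme abundant in PT and liver, went from 274 CPM to 471 CPM, a log2 ratio of 0.78 (0.72 to 0.85). Gstm2 stood at 3.27 and 6.05 CPM from 34 and 81 UMIs (log2 ratio 0.89, 0.29 to 1.51). These 3 were the members at least 1.5-fold higher, out of 35 with at least 100 UMIs over both libraries, and 0 were at least 1.5-fold lower. Of all 10125 genes with that many UMIs in PT-like cells, 2.17% were at least 1.5-fold higher and 2.2% at least 1.5-fold lower. Mgst1, a membrane-bound transferase and peroxidase, stood at 148 and 219 CPM (0.56, 0.47 to 0.65), Gsta3 at 54.2 and 75.8 CPM (0.48, 0.33 to 0.64) and Gstm1 at 188 and 232 CPM (0.31, 0.22 to 0.39). Each of the last 3 lay on the same side as Gsta4, within 1.5-fold.

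Not every transferase had that direction. Gstm5 stood at 582 and 467 CPM, a log2 ratio of -0.32 (-0.37 to -0.27), and Gstp1 at 7.79 and 5.82 CPM, where the interval of the ratio held 0 (-0.89 to 0.05). Gstp1 shares 68.1% of the 90-base windows in the last 500 bases of its transcript with Gstp2, and Gsta2 shares 10.5% with Gm10639, Gm3776 and Gsta1, so reads of these genes could be split among copies or dropped. Gsta1 shares 77.9%, and its counts are uncertain throughout. The other 34 members shared no such window with another gene.

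The remaining transferases of PT-like cells lay closer to 0. Gstt2 stood at 185 and 222 CPM (0.26, 0.18 to 0.35), Gstt1, its theta class relative, at 76.0 and 89.1 CPM (0.23, 0.10 to 0.36), and Gstz1, which also acts in tyrosine breakdown, at 54.6 and 61.9 CPM (0.18, 0.02 to 0.34). Mgst3 stood at 226 and 243 CPM (0.10, 0.02 to 0.18). For the mitochondrial and peroxisomal Gstk1 (14.1 and 17 CPM) and for Gsto1 (42.4 and 44.7 CPM) the interval of the ratio held 0.

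On the mm10 build (GRCm38, GENCODE gene models) Gsta4 (ENSMUSG00000032348) lies at chr9:78182774-78209349 on the plus strand and Gsta2 (ENSMUSG00000057933) at chr9:78331018-78355788 on the minus strand, with Gsta1 between them and Gclc (ENSMUSG00000032350, chr9:77754535-77794485) on the same chromosome. Gstm2 (ENSMUSG00000040562) lies at chr3:107981702-107986453 on the minus strand, between Gstm5 and Gstm1.

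The promoter windows of Gsta2 and Gstm2 are shown because these were 2 of the 3 PT members past 1.5-fold (Gsta4 was the third). They are the 250 bases before the RefSeq gene start on GRCm38.p6, read along the gene. RefSeq and GENCODE place the starts differently: the Gsta2 window lies inside the GENCODE span of the gene, and the Gstm2 window overlaps the end of its span. Neither holds the letters TGACNNNGC, the core of the antioxidant response element, on either strand.
Gsta2, chr9:78347146-78347395, minus strand: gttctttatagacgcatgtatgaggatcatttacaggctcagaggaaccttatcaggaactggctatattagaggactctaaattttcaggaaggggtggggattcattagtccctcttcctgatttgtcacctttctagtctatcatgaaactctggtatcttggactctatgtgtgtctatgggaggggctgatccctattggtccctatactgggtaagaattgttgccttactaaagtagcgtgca
Gstm2, chr3:107986421-107986670, minus strand: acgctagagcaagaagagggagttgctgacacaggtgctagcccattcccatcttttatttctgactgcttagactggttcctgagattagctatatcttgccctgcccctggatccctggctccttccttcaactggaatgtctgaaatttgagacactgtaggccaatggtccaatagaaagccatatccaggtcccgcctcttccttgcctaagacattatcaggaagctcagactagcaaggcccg

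None of the members of the other roles passed 1.5-fold in PT-like cells. Gclc stood at 100 CPM (94.1 to 106) in the Cre- and 68.8 CPM (64.4 to 73.4) in the library labelled PHDTiEC, a log2 ratio of -0.54 (-0.67 to -0.41), which made it the lowest of the 35. Its partner Gclm stood at 232 and 235 CPM (0.02, -0.06 to 0.09), Gss at 134 and 116 CPM (-0.20) and Gsr at 97.5 and 100 CPM (0.04), so the 4 genes of synthesis and reduction did not share a direction. Gpx3 had a log2 ratio of 0.22 (0.21 to 0.23), Gpx1 of -0.03 and Gpx4, which reduces lipid hydroperoxides in membranes, of -0.01. The 5 peroxiredoxins lay between -0.08 (Prdx5) and 0.07 (Prdx6), and Sod1, Sod2, Sod3 and Cat between -0.16 and 0.05. Prdx2 stood at 429 and 412 CPM and the mitochondrial Prdx3 at 83.9 and 81.5 CPM. Txn1 stood at 860 and 728 CPM (-0.24, -0.28 to -0.20), Txnrd1 at 71.1 and 71.1 CPM (0.00), and Nqo1 at 6.35 and 6.42 CPM (0.02, -0.46 to 0.50). The median log2 ratio of the 35 members was 0.05, beside 0.03 over all genes with at least 100 UMIs.

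The PT-like cells of the 2 libraries also differed in genes listed as markers of the tubule's segments. The 4 genes of the early segment S1 did not pass 1.5-fold, with Slc5a2, the S1 glucose transporter, at 420 and 421 CPM. All 4 genes of the last segment S3 with enough UMIs, of 6 listed, were lower in the library labelled PHDTiEC: Slc7a13 at 25.7 and 6.5 CPM, Slc22a30 at 35.9 and 23.1 CPM, Atp11a at 143 and 57.0 CPM, and Kap, the kidney androgen-regulated protein, at 2081 and 108 CPM. Of the 4 genes of S2, 2 were at least 1.5-fold lower, Slc22a6 at 121 and 65.9 CPM and Cyp2e1 at 344 and 141 CPM. The 4 genes of S3 were each at least 1.5-fold lower too, where 2.2% of all genes in PT-like cells were. Cells with a UMI of Slc7a13, Slc22a30 or Atp11a made up 80.5% of the Cre- and 66.0% of the other PT-like cells. Among the 75 and 173 PT-like cells with a UMI of an S1 gene (Slc5a2 or Slc5a12) and none of these S3 genes, Gsta4 stood at 34.2 and 48.7 CPM (44 and 148 UMIs, log2 ratio 0.51) and Gsta2 at 341 and 518 CPM (0.60). In those cells the Gsta4 ratio no longer passed 1.5-fold, the Gsta2 ratio did, Gpx3 was at 0.00, Gclc at -0.45 and Gstm5 at 0.08. Gstm2 had 2 and 16 UMIs there. In all PT-like cells Gstm2 was also under the level that free RNA alone would give in the Cre- library (3.27 against 5.40 CPM). Whether the mix of segments or the regulation of the segment genes differed was not tested. What part the segment genes have in the transferase ratios was not tested either.

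**Figure D2:**
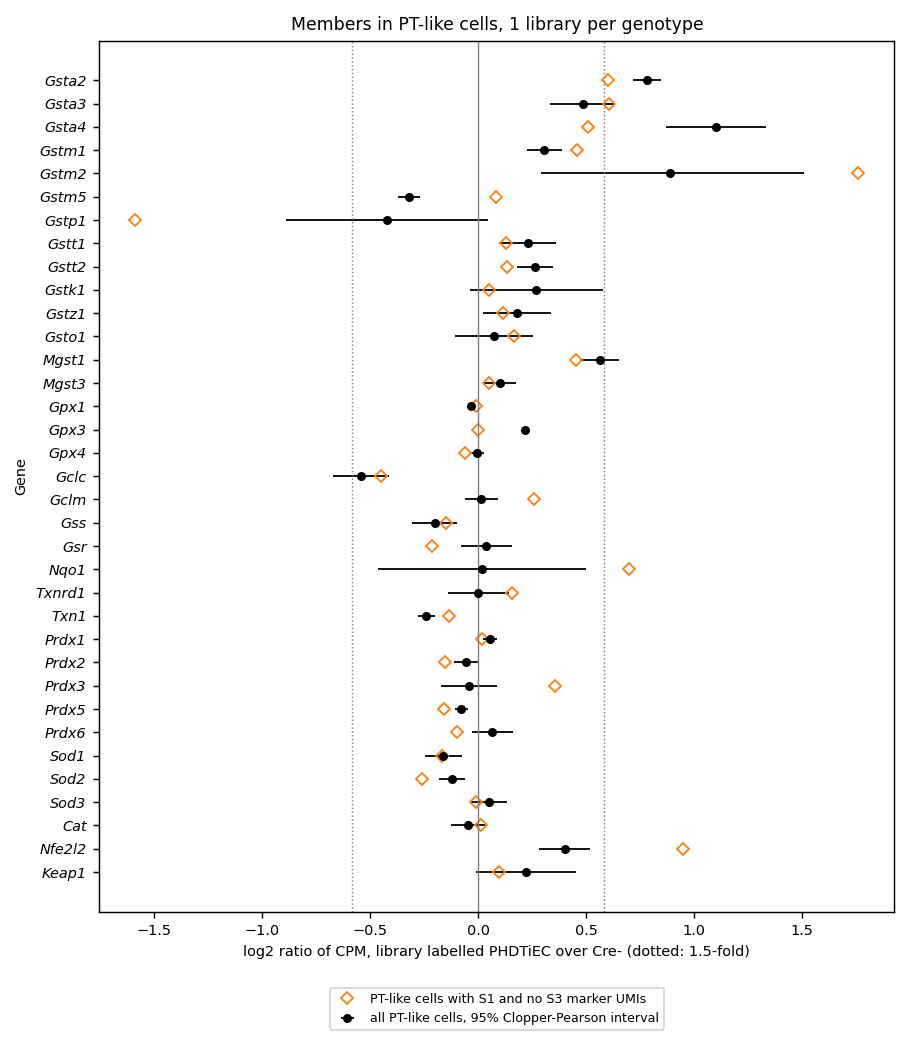
Log2 ratio of CPM, library labelled PHDTiEC over Cre-, of the 35 members with at least 100 UMIs in PT-like cells (black, with 95% Clopper-Pearson intervals) and in PT-like cells with S1 and without S3 marker UMIs (orange, drawn without intervals, some from few UMIs). Dotted lines mark 1.5-fold, which Gsta2 (0.78), Gsta4 (1.10) and Gstm2 (0.89) pass in all PT-like cells.

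In injured PT-like cells (290 and 279 cells, with the injury genes Havcr1 and Krt20 among the markers used), the transferases did not repeat this order. Gsta2 stood at 154 and 118 CPM (-0.38, -0.50 to -0.26) and Gstm5 at 412 and 292 CPM (-0.49, -0.57 to -0.42), while Gsta4 stood at 10.0 and 14.6 CPM (0.55, 0.14 to 0.96). Gpx1, the cytosolic peroxidase, had 2750 and 2039 CPM (-0.43), and Gpx3 had 2702 and 3784 CPM (0.49, 0.46 to 0.51). Of the 34 members with at least 100 UMIs, 0 were at least 1.5-fold higher and 0 lower, where 4.2% and 1.26% of all such genes were. The median was 0.08, beside 0.05 over all genes.

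In TAL-like cells Gpx3 had 93.3 CPM (Cre-) and 219 CPM, a log2 ratio of 1.23 (1.13 to 1.33). Both values lay under the 201 and 366 CPM that free RNA would give by the marker estimate. That estimate put the free share at 7.85% and 11.1% of the UMIs of these cells. The free RNA of the library labelled PHDTiEC itself held more Gpx3 than that of the Cre- library (3283 against 2564 CPM). How much of the TAL-like difference in Gpx3 is background was not tested. That 1 gene was the single member higher, of 33, and 0 were lower, where 2.67% and 1.26% of all genes were. The median of the 33 was 0.00, beside 0.10 over all genes.

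Nqo1 had opposite directions in 2 neighbouring segments. It encodes a quinone reductase that is a standard readout of NRF2. In DCT-like cells it stood at 16.1 CPM (128 UMIs, Cre-) and 9.42 CPM (84 UMIs, labelled PHDTiEC), a log2 ratio of -0.78 (-1.19 to -0.37). In CD-like cells it stood at 4.88 CPM (35 UMIs) and 11 CPM (88 UMIs), a log2 ratio of 1.18 (0.60 to 1.79). With cells of at most 20% mitochondrial UMIs the DCT ratio was -0.35, within 1.5-fold, and at a clustering resolution of 0.4, where no cluster took the DCT-like class, the CD ratio was -0.09. Nfe2l2 was, in DCT-like cells, the 1 member at least 1.5-fold higher and Nqo1 the 1 lower, of 32, where 4.42% and 1.7% of all genes were. In CD-like cells Nqo1 was the 1 higher of 33 and 0 were lower, where 2.9% and 2.1% of all genes were. Txnrd1 was higher in TAL-like (82.3 and 106 CPM, 0.37), DCT-like (122 and 154 CPM, 0.34) and CD-like cells (135 and 182 CPM, 0.43, 0.31 to 0.55), in each within 1.5-fold. Gsr stood at 124 and 93.0 CPM in CD-like cells (-0.41). Mgst3 had 294 and 363 CPM in DCT-like (0.31, 0.23 to 0.38) and 219 and 260 CPM in CD-like cells (0.25, 0.15 to 0.34), and Prdx5, a peroxiredoxin of mitochondria and peroxisomes, 929 and 1120 CPM (0.27) and 842 and 1020 CPM (0.28). In DCT-like cells Gclc was higher, unlike in PT-like cells, at 159 and 208 CPM (0.39, 0.29 to 0.50), and Gstt1 stood at 223 and 276 CPM (0.31). Lower in DCT-like cells were Gsta4 at 38.2 and 30.3 CPM (-0.34, -0.58 to -0.09), Gsto1 at 175 and 151 CPM (-0.22) and Prdx1 at 1012 and 888 CPM (-0.19). The median was -0.08 for DCT-like and -0.01 for CD-like cells, beside 0.12 and 0.06 over all genes.

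In endothelial-like cells, the cells that Cre targets (315 and 441 cells), 25 members had at least 100 UMIs. Gsr was the 1 member at least 1.5-fold lower, with 154 UMIs at 54.1 CPM (45.9 to 63.4) in the Cre- and 123 UMIs at 32.4 CPM (27 to 38.7) in the library labelled PHDTiEC, a log2 ratio of -0.74 (-1.09 to -0.39). It was lower in each of the 2 clusters of the class, at -0.62 and -0.79. After removal of the cells with the highest doublet scores the ratio was -0.14, as a mean over cells -0.21, and with free RNA subtracted -0.54, so under these 3 settings it lay within 1.5-fold. None of the 25 was at least 1.5-fold higher (0), where 3.98% of all genes were higher and 2.95% lower. Gclm stood at 62.9 and 83.6 CPM (0.41, 0.14 to 0.68) and Sod1 at 168 and 215 CPM (0.36, 0.20 to 0.53). The median was -0.13, beside 0.02 over all genes. Tubular markers differed between the libraries in these cells. The 30 markers of PT, TAL, DCT and CD together made up 0.0944% of the Cre- and 0.0306% of the other UMIs, which puts the free share at 28.4% and 10.4%. After subtraction of that free RNA the median was 0.24, and without the cells of high doublet score 0.05, so the sign of the endothelial median depends on these steps. Gsta1, Gsta2, Gstt1, Gpx3 and Sod3 did not exceed the free level in either library.

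In fibroblast-like cells (164 and 306 cells) Gsr had the opposite direction, 18.5 CPM (13 to 25.6) from 36 UMIs and 32.3 CPM (27.1 to 38.2) from 136 UMIs, a log2 ratio of 0.80 (0.26 to 1.37). It was the 1 member higher of 28, with 0 lower, where 6.06% and 1.87% of all genes were. Gstm5 stood at 121 and 86.8 CPM (-0.48) and Gpx3 at 591 and 444 CPM (-0.41). Free RNA alone would give 271 and 409 CPM of Gpx3 there, and 357 and 40.1 CPM were left after its subtraction. The median was -0.01, beside 0.05. In macrophage-like cells, the largest class (2256 and 2500 cells), 30 of the 31 members with enough UMIs lay between -0.38 (Gstm5) and 0.48 (Gpx3). Gpx3 stood there at 109 and 152 CPM, close to the 100 and 134 CPM that free RNA alone would give. The median of the members in macrophage-like cells was -0.06, beside 0.04. The 1 member higher there was Gsta1, with 0 UMIs in Cre- cells and 255 in the others, all of them in 1 cell. None (0) was lower, where 1.14% of all genes were higher and 1.07% lower.

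**Figure D3:**
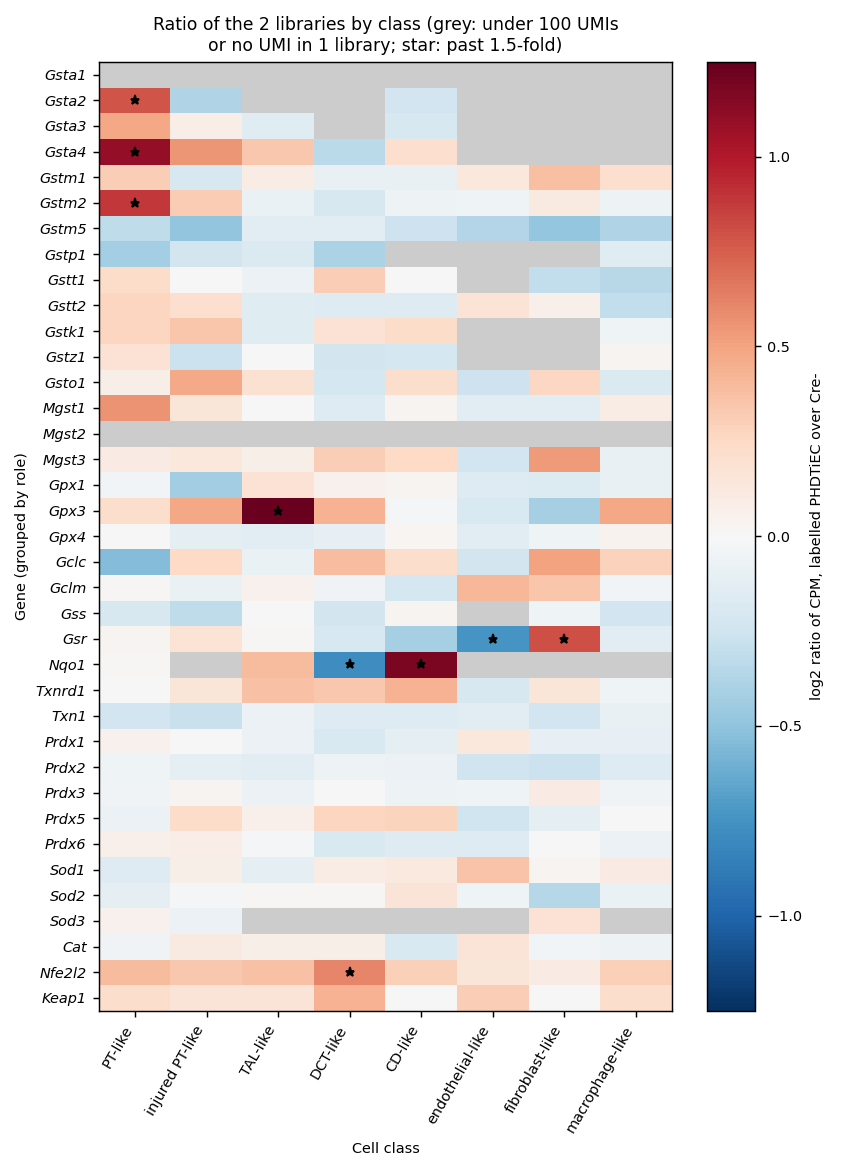
Log2 ratio of CPM, library labelled PHDTiEC over Cre-, of the 37 members (rows, grouped by role) in the 8 compared classes (columns). Stars mark ratios past 1.5-fold (Gsta2, Gsta4 and Gstm2 in PT-like, Gpx3 in TAL-like, Nqo1 and Nfe2l2 in DCT-like, Nqo1 in CD-like, Gsr in endothelial-like and fibroblast-like cells), and grey fields had under 100 UMIs or none in 1 library.

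Outside these 8 classes, the larger ratios came mostly from classes with few cells. In urothelial-like cells Gstm1 stood at 3940 and 978 CPM (-2.01, -2.13 to -1.89) and Gsta4 at 1752 and 799 CPM (-1.13). Mgst3 stood there at 310 and 183 CPM, and Nfe2l2 was higher (0.63). Of 1706 genes with at least 100 UMIs in these cells, 161 were at least 1.5-fold higher and 127 lower. In pericyte-like cells Gclm stood at 40.0 and 93.2 CPM from 33 and 95 UMIs (1.22, 0.63 to 1.84), where 223 of 2818 genes were at least 1.5-fold higher. In dendritic-like cells Gclc had 43.6 and 18.6 CPM (-1.23), with 27.2% and 24.5% of its UMIs in a single cell of each library, and Txn1, the cytosolic thioredoxin, had 893 and 559 CPM (-0.68, -0.77 to -0.58). Gpx3 had 55.4 and 108 CPM there (0.97), under the 86.9 and 124 CPM that free RNA alone would give. Of 4691 genes in these cells, 206 were at least 1.5-fold higher and 128 lower. In T-like cells Gsr was higher (0.69) and Mgst2 lower (-0.69), where 179 and 57 of 5462 genes were. In a cluster with intercalated and CD markers, whose cells had a median of 47924 and 52330 UMIs, Nqo1 stood at 5.40 and 8.31 CPM (0.62, 0.25 to 1.00), the same side as in CD-like cells, and Gsto1 at 118 and 179 CPM (0.61). Gpx3 stood there at 437 and 269 CPM (-0.70), but free RNA alone would give 331 and 476 CPM, more than was measured in the library labelled PHDTiEC. Of 11517 genes in that cluster, 271 were at least 1.5-fold higher and 226 lower.

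Nfe2l2 was higher in the library labelled PHDTiEC in most classes. Over all cells it stood at 295 and 363 CPM from 34953 and 48066 UMIs, a log2 ratio of 0.30 (0.28 to 0.32). In DCT-like cells it stood at 269 and 412 CPM (0.61, 0.54 to 0.69), in PT-like cells at 89.3 and 118 CPM (0.40, 0.28 to 0.52), in TAL-like cells at 291 and 376 CPM (0.37) and in injured PT-like cells at 138 and 174 CPM (0.34). In macrophage-like cells it stood at 498 and 614 CPM (0.30, 0.27 to 0.34) and in CD-like cells at 255 and 313 CPM (0.30). In fibroblast-like cells (157 and 169 CPM) the interval of the ratio held 0, and in endothelial-like cells (223 and 247 CPM) it began at 0.00. With another scaling of the class totals (TMM factors) the DCT ratio was 0.52, within 1.5-fold. In monocyte-like cells the direction was the other one, 801 and 712 CPM (-0.17, -0.31 to -0.03). Prdx2 and Txn1 had the reverse direction in each of the 8 compared classes, with log2 ratios from -0.27 to -0.06 for Prdx2 and from -0.27 to -0.07 for Txn1, none past 1.5-fold (at resolution 1.2 the Prdx2 ratio of PT-like cells was 0.05). Keap1, the inhibitor of NRF2, had ratios in the 8 classes between -0.01 (fibroblast-like and CD-like) and 0.44 (DCT-like, 35.8 and 48.4 CPM, 0.22 to 0.66). In PT-like cells with S1 and no S3 marker UMIs Nfe2l2 stood at 64.5 and 124 CPM (0.95).

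**Figure D4:**
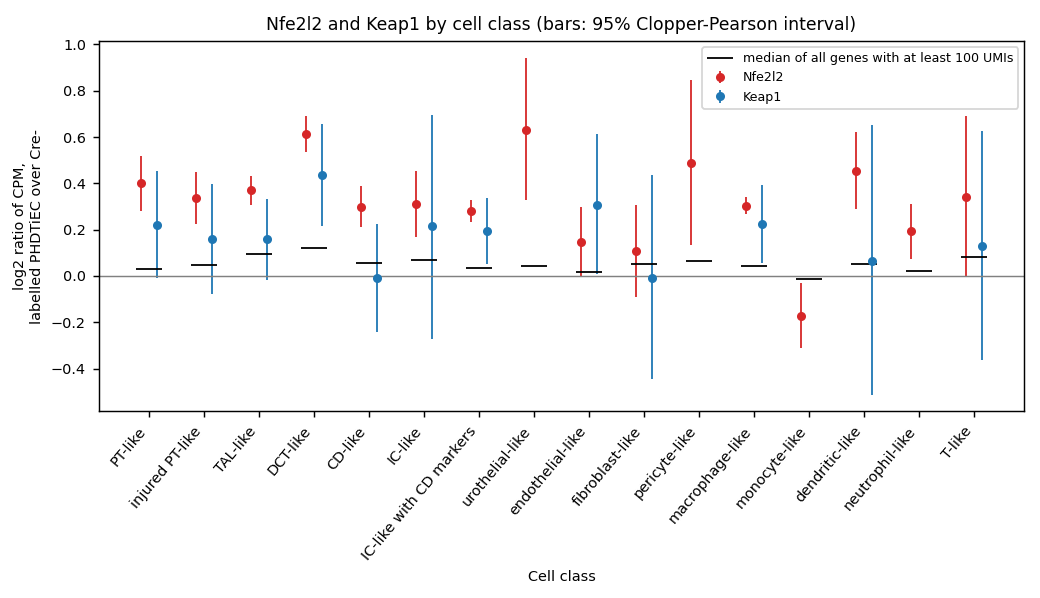
Log2 ratio of CPM, library labelled PHDTiEC over Cre-, of Nfe2l2 (red) and Keap1 (blue) in each named class where the gene had at least 100 UMIs, with 95% Clopper-Pearson intervals, and the median of all genes with at least 100 UMIs (black dash). Nfe2l2 lies above that dash in every class drawn except monocyte-like cells, from 0.11 in fibroblast-like to 0.63 in urothelial-like cells.

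Genes of early cell stress also differed between the libraries in some of these classes. The 10 genes of a list of dissociation stress (Fos, Jun, Atf3 and others) had a median log2 ratio of 0.44 in DCT-like, 0.25 in PT-like, 0.20 in TAL-like and 0.18 in CD-like cells, and of 0.06 in macrophage-like, 0.08 in injured PT-like, -0.07 in fibroblast-like and 0.00 in endothelial-like cells. In DCT-like cells 2 of the 10 were at least 1.5-fold higher, Atf3 at 934 and 1544 CPM (0.72) and Fos at 2349 and 3636 CPM (0.63), where 4.42% of all genes were. In injured PT-like cells 2 of the 10 were also higher, the heat shock genes Hspa1a at 60.9 and 104 CPM (0.78) and Hspa1b at 52.6 and 84.3 CPM (0.68), where 4.2% of all genes were. In CD-like cells Atf3 was higher (0.81), where 2.9% of all genes were. In fibroblast-like cells Hspa1b was higher (0.86) and Ier2 lower (-0.67), where 6.06% and 1.87% of all genes were. In the other 4 classes 0 passed 1.5-fold. The part of these stress genes in the Nfe2l2 difference was not tested.

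The promoter window of Nfe2l2 is shown because the gene passed 1.5-fold in DCT-like cells and was higher in most classes, and that of Gclm because the gene passed it in pericyte-like cells. Capitals mark the letters TGACNNNGC on either strand. The table used held 39 windows of 31 members, some with several, and 8 of the 39 held a match (1 each in Gsta3, Gstm5, Mgst1, Gclm, Txnrd1, Prdx1, Sod1 and Nfe2l2), beside 10.2% of all 32851 windows. ACGTG, the core letters of the hypoxia response element, occurred on either strand in 5 of the 39 (Gstm1, Gstp1, Gpx1, Gclm and Keap1), beside 16.6% of all windows.
Nfe2l2, chr2:75704664-75704913, minus strand: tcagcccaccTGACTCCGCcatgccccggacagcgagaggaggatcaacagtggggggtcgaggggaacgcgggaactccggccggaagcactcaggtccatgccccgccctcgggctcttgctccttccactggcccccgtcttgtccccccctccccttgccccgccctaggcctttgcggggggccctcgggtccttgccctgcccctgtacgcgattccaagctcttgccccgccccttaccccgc
Gclm, chr3:122245307-122245556, plus strand: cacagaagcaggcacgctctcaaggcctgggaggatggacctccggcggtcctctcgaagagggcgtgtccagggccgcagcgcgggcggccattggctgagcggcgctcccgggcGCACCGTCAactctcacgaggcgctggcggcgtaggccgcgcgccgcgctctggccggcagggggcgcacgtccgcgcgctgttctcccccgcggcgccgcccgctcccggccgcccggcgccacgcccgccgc

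The members with a TGACNNNGC match had no common direction in PT-like cells. Mgst1 (0.56), Gsta3 (0.48) and Nfe2l2 (0.40) were higher, Gstm5 (-0.32) and Sod1 (-0.16) were lower, and Gclm (0.02), Txnrd1 (0.00) and Prdx1 (0.06) were near 0.

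Other genes of the same pathways were taken from fixed lists. Of 18 further NRF2 target genes, 14 had enough UMIs in PT-like cells and 0 passed 1.5-fold in either direction, with a median of 0.00. Over the 8 classes the median of that list stayed between -0.07 and 0.04. In it Akr1b8, an aldose reductase-like enzyme, stood lower in TAL-like (88 and 54.3 CPM, -0.70), DCT-like (27.1 and 11.9 CPM, -1.19) and CD-like cells (28.2 and 18.1 CPM, -0.64). Of all genes, 1.26%, 1.7% and 2.1% were at least 1.5-fold lower there. The list also had 1 gene lower in each of injured PT-like (of 15), endothelial-like (of 12) and macrophage-like cells (of 16). In these 1.26%, 2.95% and 1.07% of all genes were lower. In fibroblast-like cells 2 of 14 were higher, where 6.06% of all genes were. One of these was Hmox1, the heme oxygenase, at 19.5 and 42 CPM (1.10, 0.59 to 1.65). Of the 9 partners and regulators of NRF2, 3 of 8 were at least 1.5-fold higher in DCT-like cells, Bach2 (0.80), Nfe2l1 (0.70) and Mafk (0.63), with a median of 0.41, where 4.42% of all genes were higher and the median was 0.12. In fibroblast-like cells 1 of 8 was higher, Bach2 (0.75), with a median of 0.35, where 6.06% of all genes were and the median was 0.05. In endothelial-like cells 1 of 7 was higher, Maff (0.59), where 3.98% of all genes were. In CD-like cells 1 of 8 was lower, Nfe2l3 (-0.80), where 2.1% of all genes were. In the other 4 classes 0 passed 1.5-fold.

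Among 17 genes of glutathione turnover and cystine uptake, Ggt1, the brush border enzyme that splits extracellular glutathione, was lower in 4 tubular classes, in 3 of them past 1.5-fold. It stood at 192 and 124 CPM in PT-like (-0.63, -0.73 to -0.54), 159 and 109 CPM in TAL-like (-0.55, within it), 81.9 and 49.4 CPM in DCT-like (-0.73) and 32.2 and 20.5 CPM in CD-like cells (-0.65), but at 56.0 and 55.6 CPM in injured PT-like cells (-0.01). Of all genes, 2.2%, 1.7% and 2.1% were at least 1.5-fold lower in PT-like, DCT-like and CD-like cells. The list also had 1 gene of 8 at least 1.5-fold higher in CD-like cells, where 2.9% of all genes were. In fibroblast-like cells 1 gene of 4 was at least 1.5-fold lower, where 1.87% of all genes were. Slc7a11, the cystine transporter, stood at 1.74 and 6.08 CPM in TAL-like cells from 21 and 81 UMIs (1.81, 1.10 to 2.58). It was the 1 gene of 11 at least 1.5-fold higher there, where 2.67% of all genes were. The 13 other thioredoxin and glutaredoxin genes had medians between -0.09 and 0.09, and 1 of them passed 1.5-fold in 1 class, Msrb2 in fibroblast-like cells (-0.65). The 9 genes of NADPH supply had medians between -0.11 and 0.16, with G6pdx in fibroblast-like cells (0.71) as the 1 ratio past 1.5-fold. Of all genes in fibroblast-like cells, 6.06% were at least 1.5-fold higher and 1.87% lower. Of 14 other transferases and peroxidases, 6 had enough UMIs in TAL-like and 6 in DCT-like cells. Gpx6 stood at 16 and 7.28 CPM in TAL-like (-1.13) and 12.9 and 2.13 CPM in DCT-like cells (-2.59), and Gstm4 at -0.67 in DCT-like cells. In these classes 1.26% and 1.7% of all genes were at least 1.5-fold lower. The metallothioneins Mt1 and Mt2, which bind zinc and copper, had log2 ratios of 0.78 and 1.09 in injured PT-like and of -0.59 and -1.59 in endothelial-like cells. Of all genes, 4.2% were at least 1.5-fold higher in the former and 2.95% lower in the latter, whose free share was put at 28.4% and 10.4%. In macrophage-like cells 1 of the 2 was lower, where 1.07% of all genes were.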

How the data were processed

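Droplet single-cell RNA was made with the Chromium 3′ v3.1 kit from 2 injured mouse kidneys, 1 per genotype. The deposited matrices hold raw UMI counts per gene and barcode, made by the authors with Cell Ranger (version 4 per the file headers) on mm10. The labels also speak of a hashing library, which is not used here. From the counts, barcodes with 500 to 100000 UMIs, at least 200 genes and at most 50% mitochondrial UMIs were kept. Both libraries were clustered together in Seurat 5.3.0 (2000 variable genes, 20 components, resolution 0.8), and clusters were named from markers. Names rebuilt in this way can differ from those of the study. Doublets stayed in. Scrublet's own threshold (scanpy 1.11.5) marked 0 cells, so the top 8% of scores were removed as an alternative, chosen after seeing the data.

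UMIs were summed per class and library and divided by the class total (CPM). Levels have Poisson intervals and ratios Clopper-Pearson intervals. A minimum of 100 UMIs of a gene, summed over both libraries in a class, was set for medians and counts. Calls were ratios of at least 1.5-fold. No test was run, since each group is 1 library. The ratio step was tested on simulated data. The share of free RNA in a class was taken from markers of other lineages (immune for tubular classes, tubular for the others) set against barcodes under 100 UMIs. Doublets add to such markers, so the share is a rough figure that can be too high.

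All 37 members are named, by role. From each further list, counts and up to 3 genes at each end were taken. Members and lists were chosen with earlier results of these data known. Promoter windows came from RefSeq (GRCm38.p6), with 31 of 37 members matched. Alternatives changed the cell filters, the clustering resolution, the scaling (TMM factors from edgeR 4.0.16), the UMI minimum, the free RNA and the doublets. Nnt, which has 2 rows under 1 symbol, was left out of its list.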

Additional observations from a re-analysis of the deposited data

Results flagged for a closer look

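Gsr and Nqo1 passed 1.5-fold in opposite directions between compared classes. Gsr had a log2 ratio (library labelled PHDTiEC over Cre-) of -0.74 in endothelial-like and of 0.80 in fibroblast-like cells. Nqo1 had a log2 ratio of -0.78 in DCT-like and of 1.18 in CD-like cells. With 1 library per genotype these differences between classes were not tested.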

How the results depend on the processing

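No paired analysis was possible because each group is 1 library, and the replicate number that the groups share pairs nothing. The median log2 ratios of the members in PT-like (0.02 to 0.08), injured PT-like (-0.0046 to 0.08), DCT-like (-0.19 to -0.02), CD-like (-0.11 to 0.01), macrophage-like (-0.09 to -0.01) and fibroblast-like cells (-0.12 to 0.02) stayed in these ranges under the alternatives run. In TAL-like cells the median was -0.077 with TMM factors and -0.067 with class totals without mitochondrial, rRNA-associated and ribosomal protein genes. In endothelial-like cells it was 0.11 as a mean over cells of counts per 10000 and 0.24 with free RNA subtracted. Over the 8 classes, 10 ratios passed 1.5-fold, out of 25 (endothelial-like) to 35 (PT-like) members with at least 100 UMIs in each class. By class, 1.14% to 6.06% of all genes were higher and 1.07% to 2.95% lower. The count of member ratios past 1.5-fold was 6 at resolution 0.4, 16 as a mean over cells and 23 with free RNA subtracted. It was 36 with no count minimum and 4 with a minimum of 500 UMIs. The number of ratios that enter the count changes with some of these settings, so the counts are not shares. Nqo1 in CD-like cells reversed at resolution 0.4, to -0.090, where no cluster took the DCT-like class. Nfe2l2 in DCT-like cells was at 0.52 with TMM factors, 0.51 without the genes named above and 0.56 with at most 20% mitochondrial UMIs, each within 1.5-fold. Leaving out those genes moved the median of all genes in DCT-like cells by -0.11. Gstm2 in PT-like cells was at 0.33 at resolution 0.4 and 0.56 at resolution 1.2. Members with the highest level in PT-like cells numbered 12, and 10 to 13 under the alternatives. The cause of these changes was not tested. Leaving out the cell with most UMIs, the S1 selection and single clusters were chosen after seeing the data. Counts under about 100 UMIs and levels near the free RNA limit what the smaller classes can show.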

Other observations

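One macrophage-like cell of the library labelled PHDTiEC held all 255 Gsta1 UMIs of that class. It had 53958 UMIs and a complexity (log10 genes over log10 UMIs) of 0.789, under the limit of 0.8 that the alternative filter sets. It also held 85 UMIs of Gm3776, a near-identical copy of Gsta1, 25 of Gsta2, 1616 of Prdx1, 583 of Lcn2, 5975 of Fth1, 34 of Akr1b8 and 11 of Mgst2. Macrophage genes were present (1645 UMIs of Mmp12, 20 of Adgre1), while the PT genes Lrp2 and Slc34a1 had 0 UMIs each.

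The copies that can share reads with members were also counted over all kept cells. Gm3776 had 33 and 103 UMIs, Gm10639 had 159 and 83, and Gstp2 had 13 and 10. Of the members, Gsta1 had 40 and 290 UMIs, Gsta2 4921 and 8156, and Gstp1 783 and 741. Reads dropped because they match several genes would not appear in any of these counts.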
